A study of Mus musculus with 9 samples.

Results

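Methylation was measured at the CpGs (a cytosine followed by a guanine) of 7 genes that control the myeloid and stem cell lineages of the blood: Csf1r, Kit, Cebpa, Cebpb, Gata2, Tal1 and Meis1. A CpG belonged to a gene when the authors' annotation named that gene as the one with the nearest start site, and it was kept when each of the 9 libraries had at least 10 reads there. This left 390 CpGs of the 897 deposited for the 7 genes, out of 356320 CpGs that met the same minimum in the whole table. Kit held 110, Gata2 103, Meis1 61, Cebpa 59, Tal1 26, Csf1r 25 and Cebpb 6. All cells were sorted from the spleen of female C57Bl/6J mice, 10 weeks old. Naive B cells (B220+ CD43-) came from control mice. Plasmablasts (B220mid CD138+), an early antibody-secreting stage, and plasma cells (B220low CD138+), the later stage, were taken on day 3 of a response to lipopolysaccharide (LPS), a bacterial cell wall component that activates B cells. Each of the 3 groups had 3 libraries. The labels do not name the animals behind them, so p-values of pooled levels measure the spread between libraries only, which may be technical. Those of single CpGs rest on counting error and on 1 spread shared by all CpGs.

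The 7 genes are known for what they do outside the B cell lineage. Csf1r encodes the receptor for macrophage colony stimulating factor, and Kit the receptor for stem cell factor on blood stem cells, progenitors and mast cells. Cebpa and Cebpb encode leucine zipper transcription factors of granulocytes and macrophages, Gata2 a zinc finger factor of stem cells and mast cells, Tal1 a helix-loop-helix factor needed to form blood, and Meis1 a homeobox partner of Hox proteins in stem cells. CpG-rich start sites are usually free of methylation whether or not the gene is used, while CpGs far from start sites are usually methylated. Methylation can be lost when dividing cells do not copy it fully, or be removed enzymatically, often at enhancers.

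The start sites of these genes come first, because most of their CpGs carried little methylation and no gene was called there when its reads were pooled. Below are the 250 bases upstream of 5 RefSeq start sites (build GRCm38.p6, gene strand, 5′ to 3′), chosen because they hold CpGs tested here. Capitals mark the tested CpGs, which were placed by matching the spacing of the deposited CpGs to the CG letters of the sequence. At each of the 5 start sites only 1 placement was possible.
Kit, chr5:75574737-75574986, plus strand: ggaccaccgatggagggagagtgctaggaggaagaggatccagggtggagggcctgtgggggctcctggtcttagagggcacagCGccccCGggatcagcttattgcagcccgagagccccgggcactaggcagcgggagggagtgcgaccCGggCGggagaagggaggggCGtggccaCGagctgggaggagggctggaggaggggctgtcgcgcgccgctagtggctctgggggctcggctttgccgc
Gata2 upstream start site, chr6:88193641-88193890, plus strand: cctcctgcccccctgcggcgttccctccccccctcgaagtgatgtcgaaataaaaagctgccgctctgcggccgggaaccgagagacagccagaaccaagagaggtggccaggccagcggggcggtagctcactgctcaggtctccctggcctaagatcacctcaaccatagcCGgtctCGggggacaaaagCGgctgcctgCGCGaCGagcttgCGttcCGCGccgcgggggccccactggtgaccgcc
Gata2 downstream start site, chr6:88198414-88198663, plus strand: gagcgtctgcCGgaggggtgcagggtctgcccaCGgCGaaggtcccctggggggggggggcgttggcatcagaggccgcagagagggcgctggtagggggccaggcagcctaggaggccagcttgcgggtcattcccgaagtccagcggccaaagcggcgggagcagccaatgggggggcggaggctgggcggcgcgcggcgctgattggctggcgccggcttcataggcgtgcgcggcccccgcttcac
Tal1, chr4:115057561-115057810, plus strand: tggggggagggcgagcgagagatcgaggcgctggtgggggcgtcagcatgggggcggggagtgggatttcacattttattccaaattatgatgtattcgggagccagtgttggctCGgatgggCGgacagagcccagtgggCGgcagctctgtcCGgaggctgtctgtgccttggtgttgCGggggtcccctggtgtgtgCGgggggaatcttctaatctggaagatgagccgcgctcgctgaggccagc
Meis1, chr11:19018970-19019219, minus strand: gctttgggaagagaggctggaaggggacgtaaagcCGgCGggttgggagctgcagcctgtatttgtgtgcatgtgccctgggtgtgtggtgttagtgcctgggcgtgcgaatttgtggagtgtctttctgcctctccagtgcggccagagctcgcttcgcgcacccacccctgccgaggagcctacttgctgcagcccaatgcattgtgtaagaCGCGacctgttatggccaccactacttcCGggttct
The letters CG, the same on both strands, occurred 17 times in the Kit sequence, 22 and 24 times in those of Gata2, 16 times in that of Tal1 and 13 times in that of Meis1, against a median of 6 over 32851 promoter sequences of this length, of which 92.1% held at least 1. The letters CCGG, which MspI cuts, contain a CG and also read the same on both strands, occurred 1 to 3 times in each of the 5 and at least once in 47.1% of all promoter sequences. The mean level of the 6 Kit CpGs in capitals was at most 3.00%, 12.4% and 4.18% in naive B cells, plasmablasts and plasma cells, in that order. For the 9 capitals of the upstream Gata2 sequence the highest means were 3.98%, 9.07% and 3.50%, and for the 3 of the downstream one 6.10%, 8.64% and 4.23%. Those of the 6 in Tal1 were 5.64%, 14.3% and 3.98%, and those of the 5 in Meis1 5.39%, 6.98% and 0.794%. None of these CpGs was called in any comparison. A lower call required a fall of at least 20 points, for which these levels leave no room.

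Reads over all deposited CpGs totalled 16037172 to 29948088 per library, and the 390 CpGs had a median coverage of 22 to 36 reads per library. The libraries differed where methylation was nearly absent. Over 78187 CpGs with a mean under 5%, naive B library 1 stood at 0.749% and the plasma cell libraries at 1.07% to 1.16%, whereas naive B libraries 2 and 3 stood at 3.13% and 2.63% and the plasmablast libraries at 2.08% to 6.11%. Start site differences of a few points lie in this range, and values with each library's background subtracted are given beside them where it moved them by more than the spread between replicates. As a check of the sort, the start site of the B cell gene Cd79b (4 CpGs) stood at 2.37% in naive B cells. Of the T cell genes Lck stood at 12.2% (19 CpGs) and Thy1 at 21.5% (2 CpGs), and the myeloid gene Csf3r stood at 7.33% (1 CpG). Other markers are not reported here.

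**Figure D1:**
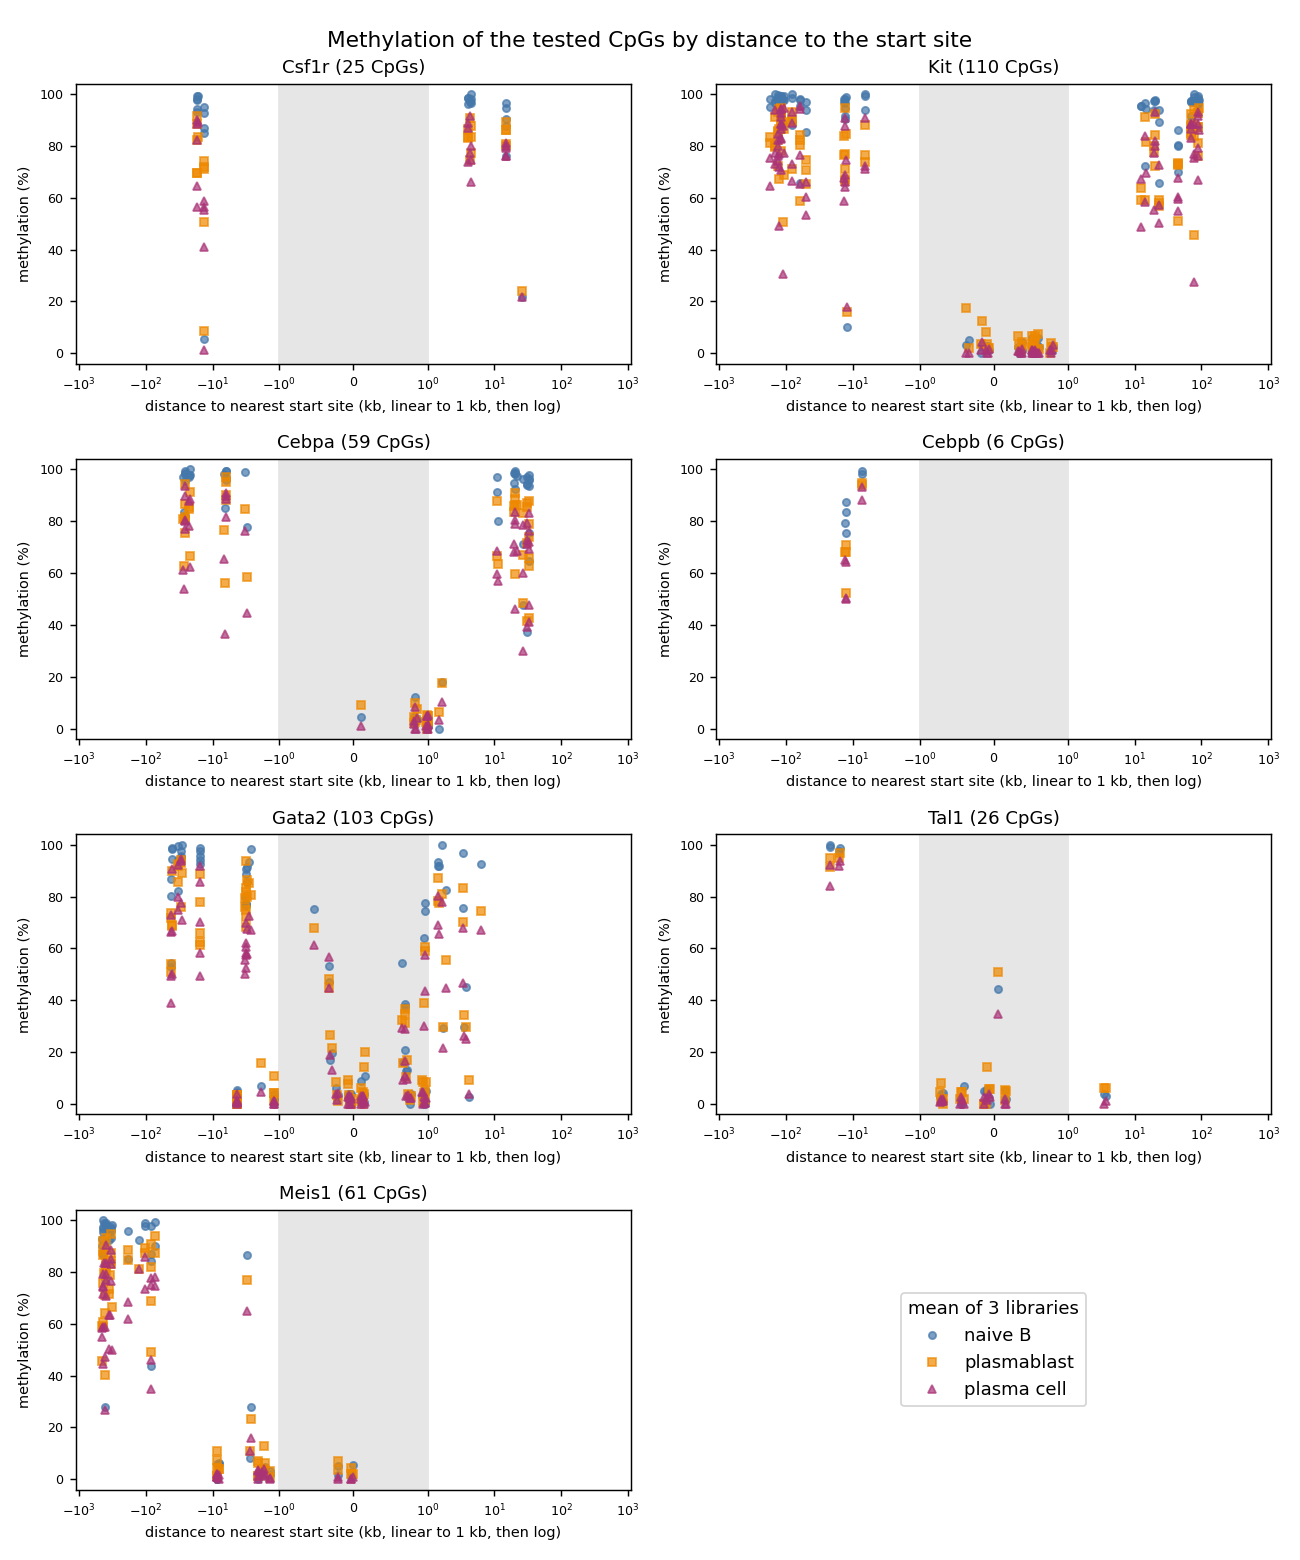
Methylation level in percent of each tested CpG (mean of 3 libraries) against its distance to the nearest start site in kb (linear to 1 kb, then logarithmic), with 1 panel per gene and 1 symbol per group. CpGs within 1 kb of a start site (shaded) lie mostly near the bottom, with a mean of 8.36% in naive B cells, and those beyond 10 kb mostly near the top, with a mean of 90.7%.

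Averaged over the 7 genes, methylation was lower in plasmablasts than in naive cells and lower again in plasma cells, and nearly all called CpGs lay away from the start sites. The mean level of the 390 CpGs was 58.0% ± 1.37, 50.5% ± 1.04 and 45.1% ± 1.48 in naive B cells, plasmablasts and plasma cells (SD, n = 3). By library it was 56.5%, 58.4% and 59.1% in naive B libraries, 49.8%, 51.7% and 50.1% in plasmablast libraries and 46.8%, 44.4% and 44.0% in plasma cell libraries. No library of one group reached the range of another, and the same held over all tested CpGs. Over all tested CpGs the corresponding means were 62.4%, 54.8% and 49.8%. Plasmablasts differed from naive B libraries 2 and 3, which share their high background, by -8.21 points (-7.44 against all 3). Plasma cells differed from naive B library 1, which shares their low background, by -11.4 points (-12.9 against all 3).

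A single CpG was called when its adjusted p (quasi-binomial test) was below 0.01 and its pooled levels, methylated reads over all reads of a group, differed by at least 20 points. In plasmablasts 46 of the 390 (11.8%) were lower than in naive B cells, beside 10.5% of all tested CpGs. In plasma cells 107 (27.4%) were lower than in naive B cells, beside 22.6%. These shares are near those of the whole table. A term for library background (naive B library 1 and the plasma cells against the other libraries) gave 56 calls in plasma cells, and a dispersion prior estimated from all CpGs, chosen after seeing the data, gave 14 in plasmablasts. The background term does not vary within plasmablasts or within plasma cells. Wherever it is used, it is therefore estimated only from naive B library 1 against the other naive B libraries. Between plasma cells and plasmablasts 2 CpGs, both of Gata2, were lower in plasma cells (0.513%, beside 0.595% of all tested). No CpG of the 7 genes was called higher in plasmablasts or in plasma cells than in naive B cells, or in plasma cells than in plasmablasts, by the quasi-binomial test (0.0645%, 0.0449% and 0.000842% of all tested CpGs were) or by limma. At an unadjusted p under 0.05, 13, 1 and 2 of the 390 were higher, none of them by 20 points.

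Most called CpGs started from a high level. Of the 390, 209 stood at 80% or above in naive B cells, and they averaged 94.8% ± 0.908, 80.7% ± 0.487 and 74.4% ± 2.09 in the 3 groups (SD, n = 3). Of these, 46 (22.0%) were called lower in plasmablasts and 98 (46.9%) in plasma cells. The same starting level gave 16.2% and 33.2% in the whole table. Another 40 CpGs stood between 20% and 80%, of which 0 and 9 were called lower (0% and 22.5%, beside 10.3% and 29.97% in the whole table). The 141 CpGs under 20% averaged 3.28% ± 1.66, 5.09% ± 1.98 and 2.09% ± 0.214, and none of them was called lower in either group. That was fixed by the rule for a call, since a fall of 20 points has no room at this starting level.

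Position went with the calls too, and with the starting level. Within 1 kb of a start site 0 of 110 CpGs were called lower in plasmablasts and 3 in plasma cells, from 1 to 10 kb 5 and 23 of 86, and beyond 10 kb 41 and 81 of 194. Over all tested CpGs the shares in plasmablasts and plasma cells were 1.81% and 4.91% within 1 kb, 11.3% and 24.9% from 1 to 10 kb and 14.8% and 31.0% beyond, so the same order held in the whole table. By the authors' classes it was 0 and 0 of 64 promoter CpGs, 0 and 4 of 45 exon CpGs, 4 and 16 of 70 intron CpGs, and 42 and 87 of 211 intergenic CpGs. The classes of the whole table gave 3.19% and 7.85%, 4.73% and 11.4%, 12.1% and 25.5% and 15.0% and 31.8%, in this order. The promoter CpGs averaged 5.75% ± 1.92, 7.33% ± 2.08 and 4.39% ± 0.456 and the intergenic ones 84.4% ± 1.15, 72.4% ± 0.843 and 65.8% ± 2.04 in the 3 groups. Neighbouring CpGs share fragments and reads, so these counts are not of independent sites. In the authors' deposited table of differential CpGs, 18 of the 390 are listed for plasmablasts and 69 for plasma cells, all of them among those called here. Both sets of calls come from the same reads, so the overlap is no independent check. Of all 897 deposited CpGs of the 7 genes 21 and 95 are listed, beside 17575 and 96854 of 911004 in the whole table.

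**Figure D2:**
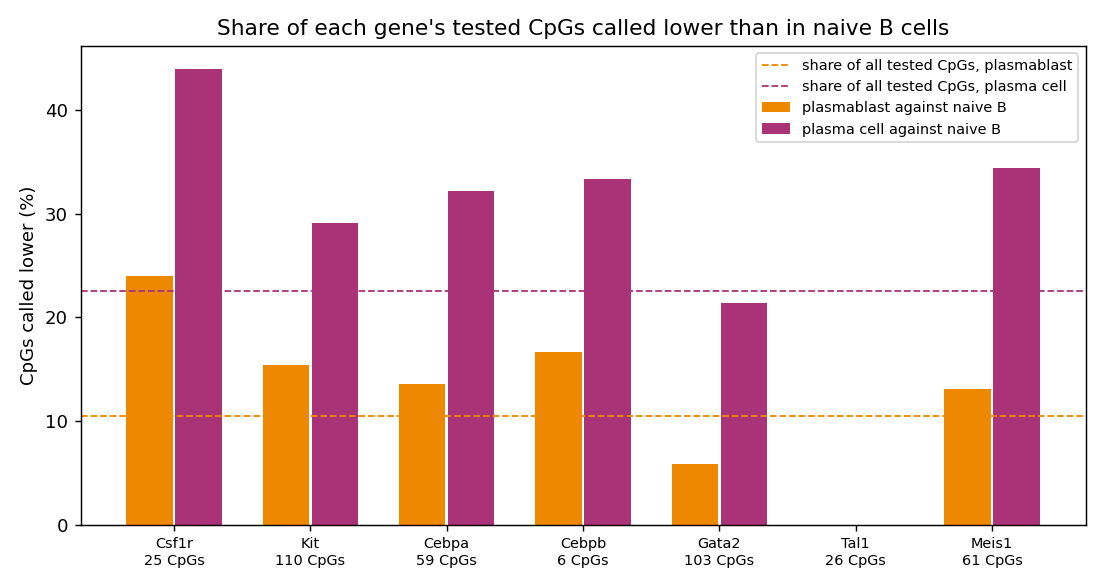
Share of each gene's tested CpGs (percent) that were called lower than in naive B cells, for plasmablasts and plasma cells, with dashed lines at the shares over all tested CpGs (10.5% and 22.6%). The plasma cell bar exceeds the plasmablast bar in each gene with calls, and Tal1 has none.

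Reads were then summed over the CpGs of a gene, separately within 1000 bp of a start site and beyond, and a gene was called when its adjusted p was below 0.01 and its difference at least 5 points. Levels below are the pooled levels of single libraries, and differences are between the pooled reads of the groups. Beyond the start sites all 7 genes were lower in plasma cells than in naive B cells, as were 89.7% of all genes so tested, and 4 were lower in plasmablasts (Csf1r, Kit, Cebpa and Cebpb), beside 62.8%. None was higher (0.0089% and 0.0178% of all genes were). No gene was lower in plasma cells than in plasmablasts there by the quasi-binomial test, nor was any gene of the table (0%). At an unadjusted p under 0.05, 6 of the 7 were lower, and limma on the unweighted mean of the CpG levels called 2. Without plasma cell library 1 the quasi-binomial test called 4 of the 7 lower in plasma cells than in plasmablasts, and without naive B library 1 it called 2. The share of all genes called in these fits was not counted, so these counts cannot be set against the 0%. Leaving out a naive B library does not change the difference between the other groups, only the dispersion behind its p.

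Within 1000 bp, where Kit, Cebpa, Gata2, Tal1 and Meis1 had at least 5 CpGs, the quasi-binomial test called 0 of 5 in each comparison. For most of these genes the rule left little or no room for a lower call. Kit, Cebpa, Tal1 and Meis1 stood at means of 2.19%, 3.79%, 4.69% and 3.10% in naive B cells, where a call required a fall of 5 points. In plasmablasts Kit, Cebpa and Meis1 stood at 4.42%, 4.41% and 3.64%. Of all genes 0.717% were lower in plasmablasts and 10.3% in plasma cells against naive B cells, and 0.562% in plasma cells against plasmablasts. At an unadjusted p under 0.05, 1 of the 5 was higher in plasmablasts, 1 was lower in plasma cells than in naive B cells and 4 were lower in plasma cells than in plasmablasts, and limma called 0. Over the whole locus 1 gene was lower in plasmablasts (Csf1r; 26.1% of all loci, with 0.00703% higher) and 6 were lower in plasma cells (every one but Tal1; 67.8% of all loci). The plasma cell call of the Cebpb locus was lost with a minimum of 5 reads (-16.5 points, adjusted p = 0.0207) and with background as a term (-22.1 points, adjusted p = 0.0130). With a minimum of 20 reads, the differences of Kit and Gata2 in plasma cells were -9.64 and -5.42 points, against -17.0 and -12.7. Between plasma cells and plasmablasts no locus of the table was called by this test (0%), while 6 of the 7 had an unadjusted p under 0.05 and limma called 1. Without plasma cell library 1 the calls over whole loci were 3, 7 and 4 of 7 for the comparisons in this order. The share of all loci called in that fit was not counted.

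**Figure D3:**
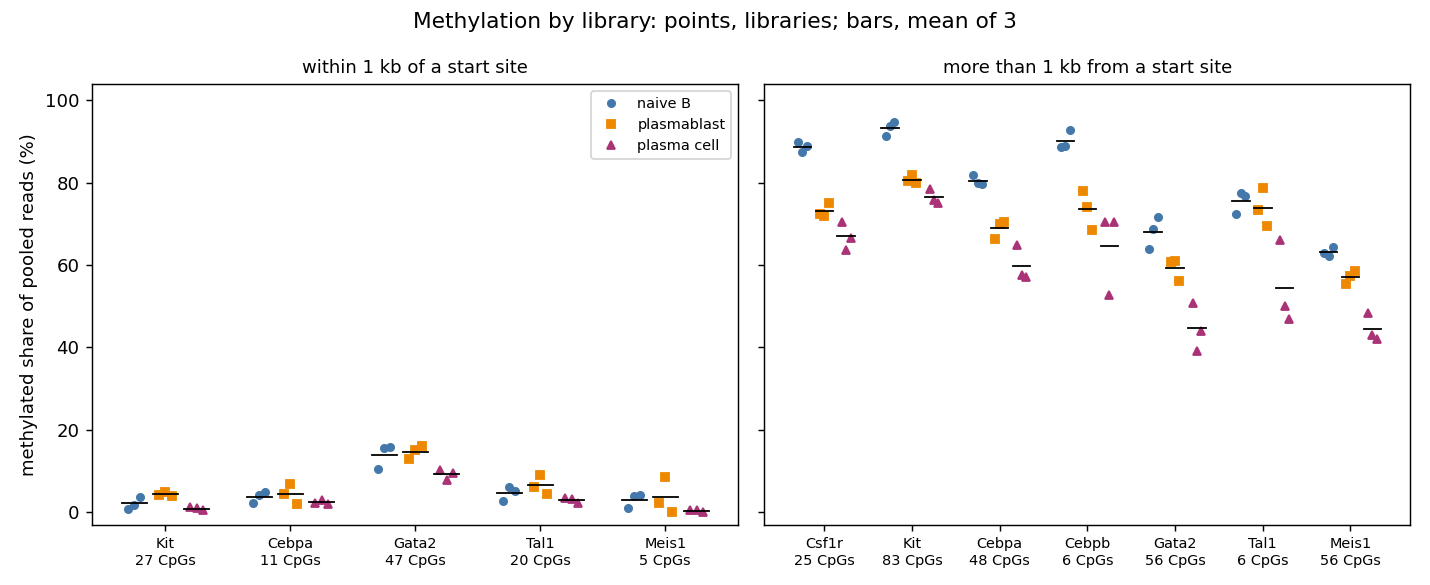
Methylated share of pooled reads (percent) in each library for CpGs within 1 kb of a start site (left, 5 genes) and beyond it (right, 7 genes), with bars at the mean of 3 libraries. On the left all libraries lie under 10% except for Gata2, which reaches 16.0%, and on the right all plasma cell libraries lie below all naive B libraries of the same gene.

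Csf1r (chr18, mm9, start sites at 61265226 and 61265435, plus strand) was lower in both antibody-secreting groups. It had no tested CpG within 1 kb of its start sites. Its 25 CpGs comprise 11 upstream in intergenic DNA, 13 in its introns and exons, and 1 at +25821 bp in the 3′ UTR of Hmgxb3. Its pooled level was 89.9%, 87.3% and 88.9% in naive B libraries, 72.5%, 71.9% and 75.1% in plasmablast libraries and 70.5%, 63.7% and 66.7% in plasma cell libraries. All antibody-secreting libraries lay below all naive ones, and those of plasma cells below those of plasmablasts. The difference was -15.7 points in plasmablasts (95% interval -19.4 to -12.1, adjusted p = 3.77e-05) and -21.3 points in plasma cells (-25.3 to -17.3, adjusted p = 2.62e-06). Plasma cells against plasmablasts gave -5.55 points (-10.2 to -0.886, adjusted p = 0.0641), not called. Of the 25 CpGs, 6 (24%) were called lower in plasmablasts and 11 (44%) in plasma cells, beside 10.5% and 22.6% of all tested CpGs. These were the highest called shares among the 7 genes. The ranking depends on coverage, since most other genes include CpGs within 1 kb of a start site, where few were called.

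The largest falls of Csf1r lay upstream, in intergenic DNA between -17105 and -13213 bp. The CpG at 61248340 (-16885 bp) was methylated in 98.1%, 100% and 100% in naive B libraries, 68.6%, 70% and 70.3% in plasmablast libraries and 57.8%, 64.7% and 46.7% in plasma cell libraries. It fell by 43.9 points in plasma cells (adjusted p = 1.09e-13) and by 29.6 in plasmablasts (adjusted p = 3.24e-09). With background as a term the plasma cell difference was -19.0 points (adjusted p = 3.57e-06), under the 20 points required for a call. Naive B libraries 2 and 3 stood at 100% there, so the term has no finite estimate and the -19.0 points are not reliable. The CpG at 61251985 (-13240 bp) stood at 84.2%, 85.5% and 85.7%, then 53.1%, 46.4% and 52.8%, then 53.8%, 31.0% and 38.2% in the same order. Its neighbour at 61252012 (-13213 bp) fell by 21.1 points in plasmablasts and by 38.9 in plasma cells. In the same stretch the CpG at 61251769 (-13456 bp) was nearly unmethylated in all groups, at 5.61% ± 4.86, 8.65% ± 7.80 and 1.15% ± 1.99 (SD, n = 3). The stretch from -17105 to -16598 bp (6 CpGs) stood at 96.5% ± 1.17, 77.6% ± 3.39 and 75.0% ± 2.66, and that from -13456 to -13213 bp (5 CpGs) at 79.2% ± 2.10, 57.3% ± 0.174 and 45.9% ± 9.53. Within the gene, the intron CpG at 61269696 (+4260 bp) and the exon CpG at 61280216 (+14780 bp) moved least of those with a high start, with differences in plasma cells of -5.55 (adjusted p = 0.0734) and -8.40 points (adjusted p = 0.275). The CpG in Hmgxb3, at 61291257, stood at 21.9% ± 8.27, 24.1% ± 6.63 and 21.8% ± 6.52.

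Kit (chr5, mm9, 75971012-76052746, plus strand, with further start sites at 76045119 and 76045218) had a nearly unmethylated start site inside methylated surroundings. Its 27 CpGs within 1 kb stood at 0.843%, 1.89% and 3.83% in naive B libraries, 4.24%, 5.01% and 4.02% in plasmablast libraries and 1.23%, 1.00% and 0.478% in plasma cell libraries. The plasmablast libraries lay above all others, and they also had a higher background than naive B library 1 and the plasma cells. Plasma cells against plasmablasts gave -3.64 points (-5.59 to -1.69, adjusted p = 0.0134), not called. Subtracting each library's background moved the unweighted difference between plasma cells and plasmablasts from -3.65 to -1.14 points, and that between plasmablasts and naive B cells from 2.38 to 0.922. Its 83 CpGs beyond stood at 91.4%, 93.8% and 94.6%, then 80.3%, 81.8% and 79.8%, then 78.4%, 75.8% and 75.0%. Here the groups did not overlap. The level fell by 12.4 points in plasmablasts (-15.1 to -9.79, adjusted p = 2.77e-05) and by 16.6 in plasma cells (-19.4 to -13.8, adjusted p = 1.77e-06). With a minimum of 20 reads the latter difference was -10.3 points and still called.

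Of Kit's 110 CpGs, 17 were called lower in plasmablasts and 32 in plasma cells, all of them among the 78 that stood at 80% or above in naive B cells. At that starting level 16.2% and 33.2% of all tested CpGs were called. The largest fall of the 390 CpGs in plasma cells was at 76122641 (+77422 bp, intergenic), which stood at 77.4%, 87.3% and 96.3% in naive B libraries, 47.4%, 36% and 52.9% in plasmablast libraries and 28.6%, 25% and 29.2% in plasma cell libraries. The difference was -58.9 points in plasma cells (adjusted p = 1.42e-11). The CpGs at 75859990 (-111021 bp) and 76057881 (+12662 bp) fell by 55.5 and 48.5 points. Other distant CpGs moved little in plasma cells. At 75909142 (-61869 bp) the levels were 94.8%, 96% and 95.2%, then 78.0%, 89.5% and 84.8%, then 95.3%, 96.1% and 91.5%, a difference of -1.01 points in plasma cells (adjusted p = 0.809) and of -11.4 in plasmablasts (adjusted p = 0.0215). At 76114808 (+69589 bp) the difference in plasma cells was -1.91 points (adjusted p = 0.817).

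Stretches of at least 3 tested CpGs of one gene with gaps of at most 500 bp, a unit chosen after seeing the data, were tested like the loci. The 7 genes held 54 of them with 340 CpGs. In plasmablasts 28 were lower than in naive B cells, beside 49.3% of all stretches of the table, in plasma cells 38, beside 67.2%, and 1 was lower in plasma cells than in plasmablasts, beside 1.89%. None was higher in plasmablasts or plasma cells than in naive B cells (0.304% and 0.0851% of all stretches were). Kit had 18 stretches, of which 13 and 15 were lower, and Csf1r 4, of which 3 and 4 were. The Kit stretch from -62145 to -61869 bp (4 CpGs), named after its values were seen, stood at 91.5%, 88.4% and 91.9%, then 81.2%, 79.2% and 75%, then 87.6%, 87.3% and 86.7%. It was called lower in plasmablasts (-11.6 points, adjusted p = 0.00294) and not in plasma cells (-3.31 points, -9.27 to 2.65), but the difference between those groups, 8.24 points (0.638 to 15.8, adjusted p = 0.119), was not called.

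Cebpa (chr7, mm9, 35904312-35906951, plus strand) has a single exon, which was nearly unmethylated in all groups, while the intergenic DNA on both sides was lower in the antibody-secreting cells. The 17 exon CpGs averaged 3.94% ± 1.59, 5.16% ± 2.10 and 2.94% ± 0.770, and the 42 intergenic CpGs 90.7% ± 0.824, 76.9% ± 1.01 and 69.7% ± 3.12 (SD, n = 3). None of the exon CpGs and 19 of the intergenic ones were called lower in plasma cells, beside 11.4% and 31.8% of these classes in the whole table. At their average level the exon CpGs had no room for the fall of 20 points that a call required. Beyond 1000 bp the pooled level was 81.8%, 79.95% and 79.6% in naive B libraries, 66.3%, 69.9% and 70.5% in plasmablast libraries and 64.9%, 57.6% and 57.2% in plasma cell libraries. It fell by 11.5 points in plasmablasts (-15.6 to -7.41, adjusted p = 0.000278) and by 20.4 in plasma cells (-24.6 to -16.1, adjusted p = 4.57e-06). Plasma cells against plasmablasts gave -8.87 points (-13.6 to -4.13, adjusted p = 0.0244), a difference called without plasma cell library 1 (-11.6 points, adjusted p = 0.00112).

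The Cebpa CpG with the largest fall was at 35897894 (-6417 bp), at 85.9%, 79.1% and 90.7%, then 54.9%, 58.5% and 55%, then 35.3%, 45% and 29.0%. It fell by 49.5 points in plasma cells (adjusted p = 1.09e-15) and by 28.1 in plasmablasts (adjusted p = 1.52e-05). The plasma cell libraries all lay below the plasmablast ones, and that difference of -21.4 points was not called (adjusted p = 0.0266). The CpGs at 35924612 (+20299 bp) and 35876910 (-27401 bp) fell by 46.7 and 35.2 points in plasma cells. The second of these was not called with background as a term (-19.5 points, adjusted p = 0.0607). Least moved were 35878431 (-25880 bp) at -7.63 points (adjusted p = 0.159) and 35878697 (-25614 bp) at -5.53 points (adjusted p = 0.128).

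Cebpb (chr2, mm9, 167514415-167515918, plus strand) was covered at 6 of 68 deposited CpGs. All 6 lie 5′ of it in introns of Tmem189. The deposited CpGs at the Cebpb start site itself did not meet the coverage minimum and were not tested. The pooled level of the 6 tested CpGs was 88.7%, 88.9% and 92.8% in naive B libraries, 78.0%, 74.2% and 68.4% in plasmablast libraries and 70.4%, 52.8% and 70.5% in plasma cell libraries. It fell by 16.5 points in plasmablasts (-25.5 to -7.47, adjusted p = 0.00441) and by 24.7 in plasma cells (-34.3 to -15.1, adjusted p = 0.000328). The unweighted mean of the CpG levels differed by -12.4 and -18.7 points. The plasmablast call was lost without naive B library 2 or 3 (adjusted p = 0.0126 and 0.0170) and without plasmablast library 2 or 3 (adjusted p = 0.0125 and 0.0206). The CpG at 167501686 (-12728 bp) stood at 85%, 94.4% and 83.3%, then 59.5%, 54.8% and 42.5%, then 52.1%, 46.2% and 51.3% and was called in both groups (-35.0 and -37.1 points). The CpG at 167501719 (-12695 bp) was called in plasma cells (-32.6 points, adjusted p = 0.000200), but not without plasma cell library 2 (-24.1 points, adjusted p = 0.0103) or with the dispersion prior from all CpGs (adjusted p = 0.0190). Closer to Cebpb, the CpGs at 167507251 (-7163 bp) and 167507261 (-7153 bp) differed by -5.04 and -8.58 points in plasma cells (adjusted p = 0.105 and 0.0365).

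Gata2 (chr6, mm9, start sites at 88143885 and 88148658, end at 88157026, plus strand) held both CpGs and the 1 stretch that were called between plasma cells and plasmablasts. Its 47 CpGs within 1 kb of either start site stood at 10.6%, 15.6% and 15.8% in naive B libraries, 13.0%, 15.2% and 16.0% in plasmablast libraries and 10.3%, 7.96% and 9.64% in plasma cell libraries. Each plasma cell library lay below each library of the other groups. The difference was -4.69 points against naive B cells (-7.53 to -1.85, adjusted p = 0.0171) and -5.38 against plasmablasts (-8.42 to -2.33, adjusted p = 0.0188). Neither was called, but without naive B library 1 both were (-6.36 points, adjusted p = 0.000112, and -5.38 points, adjusted p = 0.000909). Against naive B library 1 alone, which shares the low background of the plasma cells, the unweighted difference was -2.50 points, beside -4.50 against all 3. Subtracting each library's background moved the unweighted difference from plasmablasts from -4.07 to -1.56 points. The 56 CpGs beyond stood at 63.9%, 68.8% and 71.7%, then 60.7%, 61.1% and 56.2%, then 50.8%, 39.1% and 44.0%.

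Beyond its start sites Gata2 fell by 22.3 points in plasma cells (-28.5 to -16.0, adjusted p = 2.98e-05). The unweighted mean of its CpG levels differed by -15.5 points. Pooled differences also move with how reads divide between highly methylated and unmethylated CpGs. Plasmablasts differed from naive B cells by -8.03 points (-14.4 to -1.62, adjusted p = 0.0265), and plasma cells from plasmablasts by -14.2 (-20.6 to -7.85, adjusted p = 0.0209). These last differences were not called. Both were called without naive B library 1 (adjusted p = 0.00644 and 0.00662), without plasma cell library 1 (adjusted p = 0.00734 and 0.00106), and by limma on unweighted means (adjusted p = 0.00187 and 0.00734). The differences of the unweighted means were -7.28 and -8.22 points.

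A stretch of 12 intergenic CpGs upstream of Gata2 (chr6, mm9, 88140666 to 88141235, -3218 to -2649 bp), named after its values were seen, differed between the antibody-secreting stages. Its level was 88.1%, 82.1% and 83.7% in naive B libraries, 78.3%, 81.8% and 80.8% in plasmablast libraries and 64.2%, 57.2% and 61.2% in plasma cell libraries. Every plasma cell library lay below every plasmablast and naive B library, while the lowest naive B library lay just above the highest plasmablast library. Plasma cells fell by 24.3 points against naive B cells (-29.5 to -19.0, adjusted p = 6.57e-08) and by 19.3 points against plasmablasts (-24.8 to -13.8, adjusted p = 0.000287). Plasmablasts differed from naive B cells by -4.96 points (-9.74 to -0.182, adjusted p = 0.0644). Each of the 12 CpGs had a lower mean in plasma cells than in plasmablasts. In plasma cells 7 of them were called lower than in naive B cells, and in plasmablasts none. With library background as a term, the difference between plasma cells and plasmablasts was -27.6 points and no longer called (adjusted p = 0.0152), and that between plasma cells and naive B cells was -29.9 points and still called. Farther out, 8 CpGs between -4277 and -4229 bp carried almost no methylation, at 1.84% ± 2.13, 1.78% ± 2.30 and 1.11% ± 0.318 in the 3 groups (SD, n = 3).

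**Figure D4:**
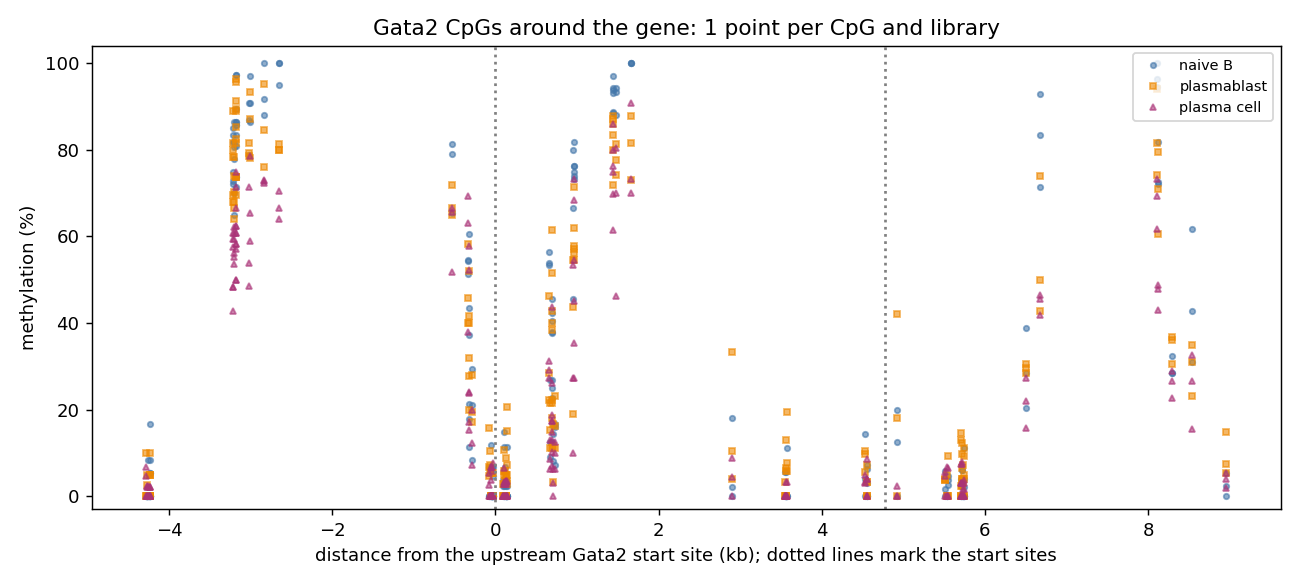
Methylation level in percent of each tested CpG around Gata2 in each of the 9 libraries, against the distance in kb from the upstream start site, with dotted lines at the start sites. Near -3 kb the plasma cell points lie mostly below the other groups (pooled levels of 57.2% to 64.2% against 78.3% to 88.1%), and at the start sites most points of all groups lie near 0.

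In another stretch, farther from Gata2 and named after its values were seen, the pooled levels of plasmablasts and plasma cells overlapped. Its 5 CpGs, from -15583 to -15379 bp, were at 93.0%, 96.2% and 97.5%, then 71.4%, 71.6% and 69.5%, then 74%, 66.7% and 71.6%. They fell by 24.2 points in plasmablasts (adjusted p = 7.84e-07) and by 23.5 in plasma cells (adjusted p = 2.91e-07), and plasma cells differed from plasmablasts by 0.797 points (-6.56 to 8.15). Single CpGs there and farther out could differ more, with plasma cells at -15.2 points against plasmablasts at -15583 bp (adjusted p = 0.240) and at -18.4 points at -40748 bp (adjusted p = 0.177), neither called. Of the Gata2 CpGs that stood at 80% or above in naive B cells, 0 of the 14 that lie 1 to 10 kb from a start site were called lower in plasmablasts and 10 in plasma cells, beside 15.5% and 32.4% of all tested CpGs of that distance and starting level. Of the 17 beyond 10 kb, 6 and 6 were, beside 16.7% and 33.7%. The difference between these distances was not tested. Inside the gene, the 14 CpGs from +651 to +1662 bp stood at 56.6% ± 1.46, 52.6% ± 3.49 and 38.4% ± 10.1 (SD, n = 3) and fell in plasma cells by 17.3 points (adjusted p = 9.69e-05), with plasmablasts at -4.47 points (adjusted p = 0.246).

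The Gata2 CpGs called between plasma cells and plasmablasts lie close to the start sites. The intron CpG at 88144585 (+699 bp) stood at 38%, 37.7% and 40.4% in naive B libraries, 18.2%, 40% and 51.6% in plasmablast libraries and 14.9%, 6.98% and 10.3% in plasma cell libraries, a fall of 24.1 points against plasmablasts (adjusted p = 0.00601). Plasmablast library 1 lay nearer to the plasma cells than to the other plasmablasts. The call was lost without plasmablast library 2 or 3 (adjusted p = 0.0967 and 0.0855) or plasma cell library 2 or 3 (adjusted p = 0.0625 and 0.0410). The exon CpG at 88148812 (+153 bp, 5′ UTR) stood at 0%, 20% and 12.5%, then 0%, 42.1% and 18.2%, then 0%, 2.38% and 0%, with 10 to 73 reads per library. Its fall of 24.3 points (adjusted p = 0.00118) was -8.87 points without plasmablast library 2 (adjusted p = 0.422), and it was also not called without plasma cell library 3 (adjusted p = 0.0333). The dispersion behind these p-values is shared by all CpGs. Limma, which estimates a variance for each CpG, called neither (adjusted p = 0.0756 and 0.0346). Neither was called in the fits with background as a term or with the dispersion prior from all CpGs. The 41.9 points that the background term gave at the exon CpG measure no difference. Naive B library 1 stood at 0% there, so that term has no finite estimate. With the replicate block the exon CpG differed by -19.5 points and was not called.

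Against naive B cells the largest falls of Gata2 in plasma cells were at 88103136 (-40748 bp, -43.4 points), 88128301 (-15583 bp, -42.3 points) and 88144833 (+947 bp, -39.0 points). The last of these, at 45.5%, 66.7% and 80% in naive B libraries and 53.3%, 27.3% and 10% in plasma cell libraries, overlapped between the groups. It was not called without naive B library 3 or plasma cell library 3 (adjusted p = 0.0364 and 0.122) or by limma (adjusted p = 0.0149), with the dispersion prior from all CpGs (adjusted p = 0.0526) or with background as a term (-17.0 points, adjusted p = 0.520). With that term the differences at 88103136 and 88128301 were -21.4 and -25.1 points, still called. The CpGs at 88114538 and 88114546 (-29346 and -29338 bp) moved least, with differences of 1.48 and 0.849 points (adjusted p = 0.815 and 0.924).

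Tal1 (chr4, mm9, 114730416-114744360, plus strand, with further start sites at 114732113 and 114732124) had no CpG called in any comparison. Most of its CpGs stood too low for the fall of 20 points that a lower call required. Its 20 CpGs within 1 kb stood at 2.76%, 6.21% and 5.12% in naive B libraries, 6.16%, 9.07% and 4.57% in plasmablast libraries and 3.49%, 3.20% and 2.26% in plasma cell libraries. The plasmablast libraries overlapped with the naive ones, and the plasma cells with the naive ones. Plasma cells against plasmablasts gave -3.66 points (-6.90 to -0.413, adjusted p = 0.0551), and subtracting each library's background moved the unweighted difference from -2.94 to -0.433 points. Of its 6 CpGs beyond, 4 lie upstream in introns and exons of Stil and averaged 98.9% ± 0.208, 94.4% ± 2.79 and 90.4% ± 2.63 in the 3 groups. The other pair lies at +3432 and +3747 bp and averaged 3.41% ± 1.96, 6.11% ± 1.41 and 0.583% ± 0.539 (SD, n = 3). Pooling the reads of these 6 gave a fall of 20.7 points in plasma cells (-31.5 to -9.94, adjusted p = 0.00194), but the unweighted mean of the 6 CpG levels differed by -6.55 points, and the single CpGs by -14.1 to -1.98 points. A pooled level also moves with how reads divide between highly methylated and unmethylated CpGs. The pooled call was lost without plasma cell library 3 (-16.3 points, adjusted p = 0.0120) and with background as a term (-16.8 points, adjusted p = 0.0353). The Stil CpGs at 114714678 (-15737 bp) and 114714463 (-15952 bp) differed in plasma cells by -5.62 and -5.16 points.

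Meis1 (chr11, mm9, 18780431-18918972, minus strand) had 5 CpGs within 1 kb of its start site, 20 between 1 and 10 kb and 36 farther out, all upstream and as far as -446061 bp. Those within 1 kb stood at 1.11%, 3.87% and 4.31% in naive B libraries, 2.35%, 8.57% and 0% in plasmablast libraries and 0.562%, 0.515% and 0% in plasma cell libraries. The 20 CpGs from 1 to 10 kb averaged 8.34% ± 2.18, 9.56% ± 2.97 and 5.96% ± 1.17, and none was called. Most of them stood too low for the fall of 20 points that a lower call required. The 36 CpGs beyond 10 kb averaged 90.6% ± 1.47, 77.6% ± 1.09 and 68.0% ± 3.25 (SD, n = 3). Of these, 8 were called lower in plasmablasts and 21 in plasma cells, beside 14.8% and 31.0% of all tested CpGs beyond 10 kb. Beyond 1000 bp the pooled level was 62.9%, 62.2% and 64.4%, then 55.4%, 57.4% and 58.6%, then 48.3%, 43.1% and 42.0%. The groups did not overlap. Plasma cells fell by 18.6 points (-22.3 to -14.8, adjusted p = 4.18e-06), and by 15.3 in the unweighted mean of the CpG levels. Plasmablasts differed by -5.94 points (-9.90 to -1.97, adjusted p = 0.0111), and plasma cells from plasmablasts by -12.6 (-16.7 to -8.52, adjusted p = 0.0182), neither called. The first was called without plasma cell library 1 or 3 (adjusted p = 0.00163 and 0.00826), and the second without plasma cell library 1 or naive B library 1 (adjusted p = 0.000395 and 0.00615). Limma on unweighted means, which differed by -7.92 and -7.43 points, called both (adjusted p = 0.00103 and 0.00996).

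The largest fall of Meis1 was at 19235061 (-316088 bp), which stood at 100%, 100% and 94.1% in naive B libraries, 66.7%, 68.8% and 63.6% in plasmablast libraries and 59.4%, 35.3% and 55.6% in plasma cell libraries. It fell by 45.5 points in plasma cells (adjusted p = 5.26e-09) and by 31.1 in plasmablasts. With background as a term the fit gave -75.2 points in plasma cells. The term has no finite estimate there, since naive B library 1 stood at 100%, so this value measures no difference. The CpGs at 19354577 (-435604 bp) and 19272064 (-353091 bp) fell by 44.4 and 40.9 points in plasma cells. The stretch of 4 CpGs from -84561 to -84347 bp, named after its values were seen, averaged 75.1% ± 1.41, 71.9% ± 6.82 and 54.8% ± 3.54 (SD, n = 3), with a fall in plasma cells of 20.9 points (adjusted p = 9.47e-05) and a difference from plasmablasts of -17.1 points that was not called (adjusted p = 0.0150). Least moved were 19319613 (-400640 bp, -7.32 points) and 19250724 (-331751 bp, -7.92 points).

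Other genes of these lineages were followed through 2 lists of textbook genes. Of 36 myeloid genes 17 had at least 5 tested CpGs, and 3 of these loci were lower in plasmablasts and 9 in plasma cells (beside 26.1% and 67.8% of all loci), with median differences of -5.77 and -10.8 points. Of 34 stem, erythroid and megakaryocyte genes 30 were tested, with 6 and 21 lower, beside the same shares, and medians of -5.92 and -15.7 points. Over all loci the medians were -7.42 and -15.7 points. No locus of either list was called higher. None was called lower in plasma cells than in plasmablasts, where the medians were -7.05 and -9.78 points beside -7.78 over all loci, but without plasma cell library 1 6 and 12 were. The share of all loci called in that fit was not counted. The count of 6 of the stem list in plasmablasts was 10 without naive B library 1, 3 without naive B library 2, 2 without naive B library 3, and 3, 2 and 3 without plasmablast library 1, 2 and 3.

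Of the myeloid list, Maf (a transcription factor of macrophages) had the most CpGs lower in plasma cells, 47 of 132, and its locus stood at 87.4% ± 2.73, 74.2% ± 1.12 and 66.9% ± 4.65 in the 3 groups. Irf8, a factor of monocytes, dendritic cells and B cells, had 42 of 145 and stood at 51.3% ± 2.48, 44.9% ± 2.68 and 33.4% ± 5.16. Cebpe, a granulocyte relative of Cebpa, had 8 of 23 and stood at 73.3% ± 0.568, 65.8% ± 1.34 and 57.6% ± 3.65 (SD, n = 3). Of the stem list, Zfpm1, a partner of GATA factors, had 22 of 117, Mecom, a stem cell zinc finger factor, 22 of 123, and Runx1, needed to form blood stem cells, 21 of 118. Their loci fell in plasma cells by 16.0, 15.3 and 14.6 points. The shares of called CpGs in these 3 lie below the 22.6% of all tested CpGs, and those of Maf, Irf8 and Cebpe above it. Loci were named by number of called CpGs, which favours loci with many tested CpGs.

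The loci most like each gene over the 9 libraries were found among 10524 loci (10525 for Cebpb) with at least 10 tested CpGs, by the root mean square difference of the unweighted level, as a description. Kit lay within 0.635 points of Hdac2 and 0.636 of Usp24, Cebpa within 0.603 of Dnm3 and 0.708 of Actn3, and Gata2 within 0.825 of Bcl6 and 0.844 of Klf6. Tal1 lay within 0.550 of Sf3a2 and 0.666 of Pcgf6, Csf1r within 1.01 of Gpr151 and 1.47 of Itga11, and Meis1 within 1.03 of Fam214a and 1.07 of Gm5069. Cebpb, with 6 CpGs, had no locus closer than Nyap2 and Cyp2s1, both at 3.56.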

How the data were processed

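Reduced representation bisulfite sequencing cuts DNA with MspI and reads unmethylated cytosine as thymine. The submitters' processing notes name Bismark, Bowtie2 and build mm9, without versions. For 911004 CpGs the authors deposited counts of methylated and unmethylated reads per library, the level as a fraction, the nearest start site and a class; per the file headers, promoters run from 2500 bp upstream to 500 bp downstream. They also deposited lists of differential CpGs with a p-value adjusted to a false discovery rate of 0.01 and a change of at least 20 points per the file headers.

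CpGs with at least 10 reads in all 9 libraries entered a logistic quasi-binomial fit in which each group has 1 level. The dispersion, moderated across features with limma 3.58.1 in R 4.3.3 and kept at 1 or more, was 1.27 for every CpG, so the spread between libraries at one CpG does not enter its p. Contrasts used a deviance F test with Benjamini-Hochberg adjustment over all features of the table, and intervals are 95%. Reads summed over CpGs of a gene (at least 5) were fitted likewise. Plasmablasts and plasma cells were compared with the same naive libraries. Scripts ran in Python 3.11.15 and were tested on simulated data. The 7 genes, the lists and the naming rule were chosen with earlier results of these data known. The rule named, per gene, the 3 largest called falls in plasma cells, the 2 least moved CpGs with a naive level of 80% or above, and CpGs called between plasma cells and plasmablasts, and, per list, the 3 loci with most CpGs lower in plasma cells. Replicates correlated at 0.956 to 0.986, with identical counts at 1.29% of CpGs at most. Reads carry no molecular identifiers, so single-CpG intervals cover counting error and the shared dispersion. Alternatives were other coverage minimums, minimum differences and windows, a replicate block, library background as a term or subtracted, each library left out, limma, and, chosen after seeing the data, stretches of CpGs and another dispersion prior. Promoter sequences are RefSeq's; 6 of the 7 genes had an entry.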

Additional observations from a re-analysis of the deposited data

How the results depend on the processing

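Each paragraph's counts are of calls lower, out of the 390 CpGs, 7 genes, 54 stretches or the listed loci. Shares over the whole table were not counted under these settings. Unless said otherwise the cause of a change was not tested. A minimum of 20 reads left 99 CpGs of the 7 genes to test, which by itself lowers counts: 11, 24 and 1 CpGs were called in plasmablasts against naive B cells, in plasma cells against naive B cells and in plasma cells against plasmablasts (46, 107 and 2 as reported), 4 and 7 stretches in the first 2 comparisons (28 and 38), 3 and 13 stem list loci (6 and 21), and 3 loci of the 7 genes in plasmablasts (1). A minimum of 5 reads gave 2 stretches between plasma cells and plasmablasts (1). A minimum difference of 10 points gave 75 CpGs in plasmablasts, and 30 points gave 15, 46 and 0. Library background as a term gave 56 CpGs in plasma cells, 0 CpGs and 0 stretches between plasma cells and plasmablasts, and 13 stem list loci in plasma cells. Limma per CpG called 0 between plasma cells and plasmablasts, and a dispersion prior from all CpGs, chosen after seeing the data, 14 in plasmablasts and 0 between the stages. Limma on unweighted means called 5 loci of the 7 genes in plasmablasts and 1 between the stages (1 and 0), 2 genes beyond the start site between the stages (0), 9 and 16 loci of the myeloid and stem lists in plasmablasts (3 and 6) and 1 and 5 between the stages (0 and 0). A start site window of 2000 bp gave 1 gene in plasma cells (0), Gata2.

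Replicate numbers did not pair the libraries: deviations of same-numbered libraries correlated at -0.0287 to 0.0302, and 3 of 9 libraries correlated best with their own number. With the number as a replicate block, 1 CpG, 1 start site and 3 stretches were called between plasma cells and plasmablasts (2, 0 and 1), and 3 stem list loci in plasmablasts (6).

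Leaving out each library in turn, the counts for plasmablasts, for plasma cells and for plasma cells against plasmablasts ran from 37 to 47, 92 to 108 and 0 to 2 for CpGs (and 0 to 1 higher in plasmablasts), 1 to 3, 6 to 7 and 0 to 4 for loci, 3 to 6, 6 to 7 and 0 to 4 for genes beyond the start site, 23 to 28, 30 to 37 and 1 to 3 for stretches, 2 to 4, 8 to 11 and 0 to 6 for the myeloid list, and 2 to 10, 18 to 23 and 0 to 12 for the stem list. For start sites they ran from 0 to 1 in plasma cells and 0 to 1 between the stages.

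Direction turned only for differences that were not called, except at 88148812 of Gata2, where background as a term gave 41.9 points between the stages, not called. The background term has no finite estimate at that CpG. In plasma cells against naive B cells, 88114538 of Gata2 gave -0.112 points with the block and -2.52 to 2.92 with a library left out, 88114546 gave -0.791, -3.22 to 4.07 and, with background as a term, -2.34, and 75909142 of Kit -2 to 0.411. With background as a term, Kit beyond its start site gave 2.76 points between the stages, start sites gave 0.171 (Cebpa) and 0.242 (Tal1) in plasma cells, 0.165 between the stages (Cebpa), and -0.862 (Gata2) and -0.0936 (Meis1) in plasmablasts. In plasmablasts, a minimum of 20 reads gave 0.115 for Meis1 beyond its start site, 2.56 for the Gata2 locus and -0.111 for the Cebpa start site, and unweighted means gave -0.428 for the Gata2 start site. With a library left out, plasmablast differences ran from -4.30 to 0.466 for Tal1 beyond its start site, -0.903 to 3.44 for the Tal1 locus, and -0.478 to 1.64, -0.988 to 1.64 and -1.39 to 2.28 for the start sites of Cebpa, Gata2 and Meis1. With 22 to 36 reads at the median CpG, the 95% interval of a single CpG's difference reached 8.98, 9.44 and 11.6 points to either side at the median, in the order of comparisons above.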
